A study of Mus musculus with 10 samples.

Results

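Expression of 9 genes that build or break down liver glycogen was followed in mouse livers after silencing of Rab5, the small GTPase of early endosomes. They are Gys2, Gyg, Gbe1, Ugp2, Pygl, Pygb, Ppp1r3b, Ppp1r3c and Ppp1r3g, and their data are every array feature (probe set) that the platform annotation names by one of these symbols. That gave 15 probe sets of 9 genes, out of 45037 probe sets and 18193 singly named genes on the array. Ugp2 had 5 probe sets, Gyg and Ppp1r3c had 2 each, and each of the other genes had 1.

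The 10 livers came from male C57BL/6 NHsd mice, an inbred strain. Of these, 4 had received lipid nanoparticles with siRNAs against Rab5 (labelled Rab5all), 4 the nanoparticles with a control siRNA, and 2 saline (PBS) alone, by the tail vein. The siRNA dose was 1.5 mg/kg, and livers were taken on day 5. The control siRNA is called scrambled in the sample titles but luciferase siRNA in the design text. Whole liver was used, so fewer cells of a type and less RNA per cell cannot be told apart, and no second set of Rab5 siRNAs was among the groups. Feeding state, hour of collection and glycogen content are not given in the sources used here.

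Glycogen is a branched glucose polymer that hepatocytes lay down after a meal and release between meals. Ugp2 makes UDP-glucose, the activated donor, Gyg (glycogenin) primes the chain, Gys2 (the liver glycogen synthase) lengthens it and Gbe1 adds branches. Pygl and Pygb, the liver and brain isoforms of glycogen phosphorylase, remove glucose units as glucose 1-phosphate. Ppp1r3b, Ppp1r3c and Ppp1r3g encode subunits that bring protein phosphatase 1 to glycogen, where it activates the synthase and inactivates phosphorylase.

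The stretches before the transcription start are shown for the called genes that RefSeq's table of starts (GRCm38.p6) held, and for Ppp1r3c, since a regulator's letters can be looked for there. Ppp1r3c was not called, and the windows of the other uncalled genes in that table, Gbe1, Ugp2 and Pygl, are not printed. Each is the 250 bases before the start, 5' to 3', in lower case with matched motifs in capitals. The table held 7 of the 9 genes, and Gys2 and Ppp1r3b were not in it. The Ppp1r3g window lies inside the annotated span of its gene, chr13:35958824-35970388. It therefore precedes a start within that span and not the first base of the gene.
Gyg, chr3:20155117-20155366, minus strand: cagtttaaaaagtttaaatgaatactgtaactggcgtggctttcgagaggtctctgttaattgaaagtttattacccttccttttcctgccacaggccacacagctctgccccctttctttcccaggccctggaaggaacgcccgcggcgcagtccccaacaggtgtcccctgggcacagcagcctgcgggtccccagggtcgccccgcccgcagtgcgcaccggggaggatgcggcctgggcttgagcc
Pygb, chr2:150786546-150786795, plus strand: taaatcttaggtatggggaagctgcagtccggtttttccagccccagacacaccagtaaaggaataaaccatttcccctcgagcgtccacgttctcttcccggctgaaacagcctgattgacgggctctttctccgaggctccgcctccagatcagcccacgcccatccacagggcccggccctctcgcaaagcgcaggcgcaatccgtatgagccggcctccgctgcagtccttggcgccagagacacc
Ppp1r3g, chr13:35967656-35967905, plus strand: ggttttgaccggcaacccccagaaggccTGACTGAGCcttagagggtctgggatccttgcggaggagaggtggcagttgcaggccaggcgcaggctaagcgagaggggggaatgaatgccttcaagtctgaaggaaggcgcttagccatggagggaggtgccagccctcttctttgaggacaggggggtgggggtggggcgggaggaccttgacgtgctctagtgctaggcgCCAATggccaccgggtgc
Ppp1r3c, chr19:36736605-36736854, minus strand: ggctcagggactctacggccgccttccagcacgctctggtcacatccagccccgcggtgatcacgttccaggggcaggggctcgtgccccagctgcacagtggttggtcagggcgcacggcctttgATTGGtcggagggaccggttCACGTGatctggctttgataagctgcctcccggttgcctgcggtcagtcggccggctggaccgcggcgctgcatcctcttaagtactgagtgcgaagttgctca

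In all, 6 motifs were searched on both strands. They were the E-box CACGTG, the FOXO site GTAAACA, the cAMP response element TGACGTCA, the antioxidant response element core TGACNNNGC, the CCAAT box CCAAT and the TATA box TATAAA, and none contains another. In the Gyg and Pygb windows none of the 6 was found. The same held for Gbe1 and Pygl, whose windows are not printed. The only match in the unprinted Ugp2 windows was a CCAAT box, on the other strand, at 49 bases. The Ppp1r3g window held an antioxidant response element core starting 222 bases before the start and a CCAAT box starting 18 bases before it, and the Ppp1r3c window an E-box at 104 bases and a CCAAT box, on the other strand, at 124 bases. Over all 32851 windows, 10.2% held the antioxidant response element core, 6.02% the E-box and 33.8% the CCAAT box. A match is a description of letters only.

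Values are log2 expression, and a difference is that of 2 group means on this scale, with its standard error (SE). A probe set was called at a Benjamini-Hochberg adjusted p under 0.05 by limma over all 45037 probe sets, and genes were counted by their brightest probe set, judged by its mean across the arrays. The targeted genes were low in the Rab5 siRNA livers: Rab5a averaged 6.86 there, against 8.67 in control siRNA livers, and Rab5c averaged 7.21 in Rab5 siRNA livers, against 9.21 in control siRNA livers. Rab5b, at 4.10 in Rab5 siRNA livers against 4.34 in control siRNA livers, was not called (adjusted p = 0.273 by limma). Its dimmer probe set was not lower, with 3.18, 3.36, 3.33 and 3.29 in Rab5 siRNA livers. It read 3.07, 3.22, 3.21 and 2.98 in control siRNA livers. Array medians lay between 4.29 and 4.37, so values near or under these are dim, and changes there are compressed. Alb, the albumin gene of hepatocytes, averaged 14.11 in Rab5 siRNA, 14.06 in control siRNA and 13.95 in PBS livers. It lies close to the highest values of the arrays, between 14.43 and 14.48, so a change might not show. Other hepatocyte markers did not move alike: against control siRNA Ahsg was at 0.69 (SE 0.094) and Tat at -1.37 (SE 0.122). Of the 9 measured, 7 were not called, where 14.6% of all genes were called. The 8 skeletal muscle markers had a mean between 3.88 and 4.17 in Rab5 siRNA arrays, 3.96 and 4.09 in control siRNA arrays and 3.95 and 4.01 in PBS arrays.

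Of the 9 genes, 4 were called for Rab5 siRNA against control siRNA, Gyg and Pygb higher and Gys2 and Ppp1r3g lower. Over all genes 14.6% were called, 8.62% up and 6% down. Where dim genes were left out and 1 probe set per gene fitted, 23.3% of the genes kept were called against control siRNA and 17.1% against PBS. The median difference of the 9 genes was -0.09, against -0.02 over all genes. The 4 called genes were also those whose 4 Rab5 siRNA values lay apart from all 4 control siRNA values, which held for 19.3% of all genes. Of the 4 synthesis genes 1 was up and 1 down, of the 2 phosphorylases 1 was up, and of the 3 phosphatase subunits 1 was down. Against PBS, again 4 of 9 genes were called, but Ppp1r3b took the place of Ppp1r3g. These comparisons share the Rab5 siRNA arrays, and 10.5% of all genes were called against PBS, 5.9% up and 4.56% down. By probe set 5 of the 15 were called in each of them, beside 10.9% of all probe sets against control siRNA and 7.82% against PBS.

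Among the synthesis enzymes Gys2 fell. Its log2 values in the 4 Rab5 siRNA livers were 7.58, 7.44, 7.44 and 7.44, against 8.44, 8.46, 8.41 and 8.33 in control siRNA livers and 8.19 and 7.70 in PBS livers. All Rab5 siRNA livers lay below every other liver, the control siRNA livers above both PBS livers, and the PBS livers stood far apart from each other. The mean was 7.48 ± 0.068 in Rab5 siRNA livers and 8.41 ± 0.061 in control siRNA livers (SD, n = 4 each), a difference of -0.93 (SE 0.110, adjusted p = 4.61e-05 by limma) that left 52.3% of the control signal (95% interval 44.5% to 61.6%). Against PBS, at 7.95 ± 0.346 (SD, n = 2), the difference was -0.47 (SE 0.135, adjusted p = 0.0443 by limma). This call against PBS was lost in 11 of 19 alternatives, among them each fit without 1 of the control siRNA arrays, while the call against control siRNA held in all 19. Without PBS replicate 1 the difference from PBS was -0.23, and without PBS replicate 2 it was -0.72.

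Gyg rose by both of its probe sets. The brighter one read 6.99, 7.67, 7.52 and 7.68 in Rab5 siRNA livers, against 6.52, 6.66, 6.54 and 6.86 in control siRNA livers and 6.61 and 6.69 in PBS livers. Its name carries the suffix for probes that several transcripts may share, which was not tested, and that of the dimmer one does not. Rab5 siRNA replicate 1 was the lowest of its group and still lay above every liver of the other groups. The difference from control siRNA was 0.82 (SE 0.144, adjusted p = 1.44e-03 by limma), 176% of the control signal, and that from PBS was 0.81 (SE 0.177, adjusted p = 8.95e-03 by limma). The dimmer probe set read 5.52, 5.93, 6.18 and 6.20 in Rab5 siRNA livers, against 5.34, 5.06, 5.13 and 5.54 in control siRNA livers and 5.03 and 5.17 in PBS livers. There the lowest Rab5 siRNA liver and the highest control siRNA liver overlapped, and the difference was 0.69 (SE 0.150, adjusted p = 6.79e-03 by limma). When replicate 2 was dropped from both siRNA groups, the arrays whose Gapdh 3' to 5' difference was the highest of its group, this call ended (0.63, adjusted p = 0.0584 by limma), while that of the brighter probe set held. Against PBS neither Gyg call held without PBS replicate 1 or without PBS replicate 2.

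Gbe1 and Ugp2 were not called in any of the 3 comparisons. Gbe1 read 7.56, 7.76, 7.58 and 7.96 in Rab5 siRNA livers, against 6.79, 7.59, 7.71 and 7.56 in control siRNA livers and 7.20 and 7.03 in PBS livers. The siRNA groups overlapped, with control siRNA replicate 1 far below the rest of its group, and both PBS livers lay below all Rab5 siRNA livers. The difference was 0.30 from control siRNA (SE 0.171, 95% interval -0.06 to 0.67, adjusted p = 0.318 by limma) and 0.60 from PBS (SE 0.209, adjusted p = 0.107 by limma). The Gbe1 difference from PBS was called in 2 of 19 alternatives. The 5 probe sets of Ugp2 differed from control siRNA by 0.11 to 0.37, all upward, with adjusted p between 0.256 and 0.769 by limma.

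The brightest Ugp2 probe set read 10.39, 10.77, 10.32 and 10.94 in Rab5 siRNA livers, against 10.04, 10.47, 10.48 and 10.25 in control siRNA livers and 10.18 and 9.88 in PBS livers. Its name carries the suffix for possible cross-hybridisation, which was not tested. In all 5 Ugp2 probe sets the Rab5 siRNA replicates stood in the order 3, 1, 2, 4 from low to high. Pygb had the same order. Control siRNA replicate 1 was the lowest of its group in all 5, while the order of the others differed. Against PBS the brightest Ugp2 probe set was higher by 0.58 (SE 0.183, adjusted p = 0.0722 by limma), a difference called in 6 of 19 alternatives.

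**Figure D1:**
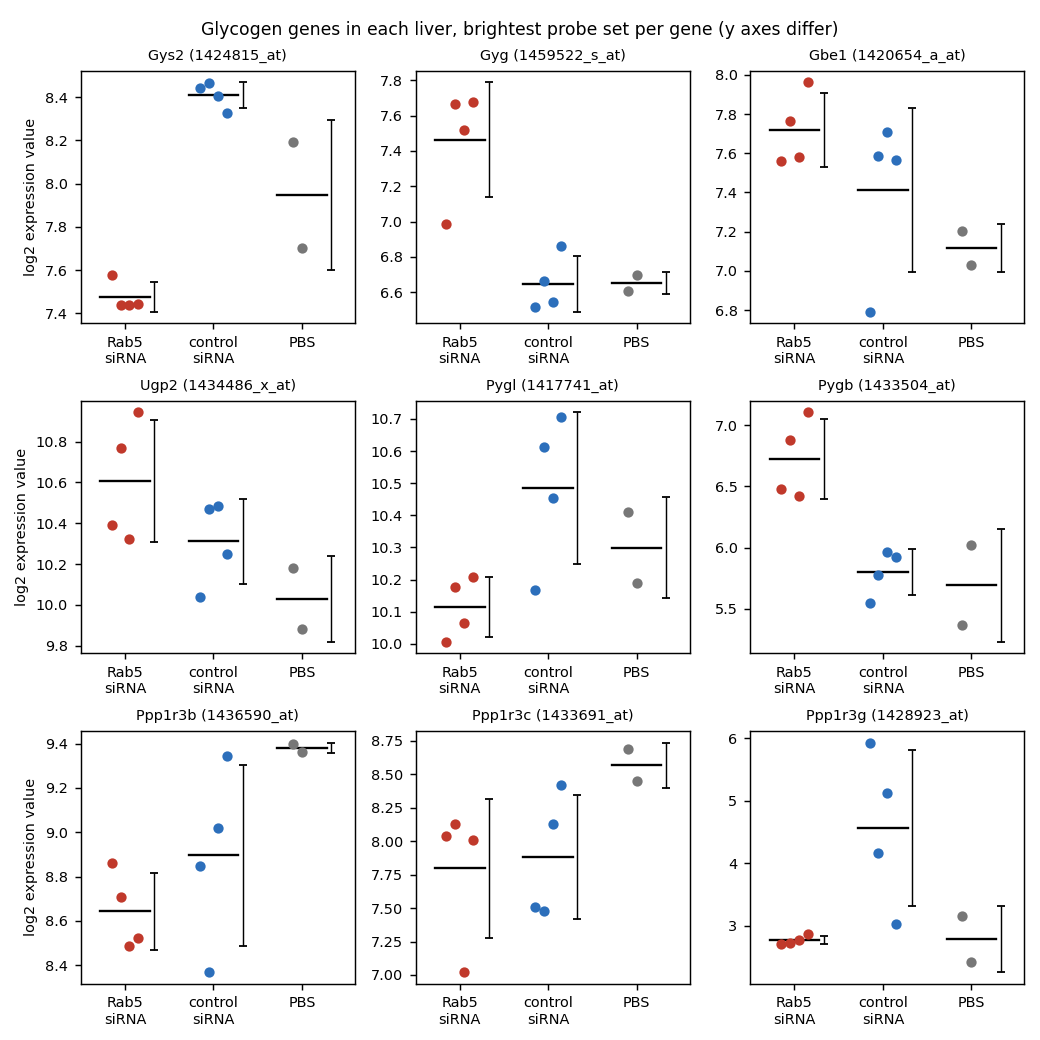
Log2 expression values (y axis, a different range in each panel) of the brightest probe set of each gene in Rab5 siRNA (4), control siRNA (4) and PBS (2) livers; each point is 1 liver, the line the mean and the bar beside it the SD. Gys2 in Rab5 siRNA livers lies between 7.44 and 7.58, below all other livers, while Ppp1r3g is spread between 3.04 and 5.93 in the control siRNA livers alone.

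Of the phosphorylases Pygb was called and Pygl was not. Pygb rose, with 6.47, 6.88, 6.43 and 7.10 in Rab5 siRNA livers, against 5.55, 5.78, 5.96 and 5.92 in control siRNA livers and 5.37 and 6.02 in PBS livers. Every Rab5 siRNA liver lay above every other liver. The mean was 6.72 ± 0.327 in Rab5 siRNA livers and 5.80 ± 0.187 in control siRNA livers (SD, n = 4 each), a difference of 0.92 (SE 0.170, adjusted p = 2.13e-03 by limma), 189% of the control signal (95% interval 147% to 243%). The call held in all 19 alternatives. Against PBS the difference was 1.03 (SE 0.209, adjusted p = 5.46e-03 by limma), which was lost without PBS replicate 1 (0.70, adjusted p = 0.159 by limma).

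Pygl, the isoform of hepatocytes, read 10.01, 10.18, 10.07 and 10.21 in Rab5 siRNA livers, against 10.17, 10.61, 10.45 and 10.71 in control siRNA livers and 10.41 and 10.19 in PBS livers. Control siRNA replicate 1 lay among the Rab5 siRNA livers, and the groups overlapped. The difference of -0.37 (SE 0.121, 95% interval -0.63 to -0.11) fell short of the call (adjusted p = 0.0650 by limma) but was called in 6 of 19 alternatives, among them the filters on dim probe sets, where fewer probe sets were tested, and the fit without control siRNA replicate 1 (-0.48, adjusted p = 0.0151 by limma). Against PBS it was -0.18 (SE 0.148, adjusted p = 0.592 by limma).

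Macrophage markers were higher in the same livers in which Gyg and Pygb were higher. Of 11 Kupffer cell and macrophage markers 6 were called up and none down (5 not called), with Cd68 at 1.08 (SE 0.114) and Cd5l at 1.01 (SE 0.121). Over all genes 8.62% were called up and 6% down. The mean of the 11 was between 8.75 and 9.37 in Rab5 siRNA arrays, 8.36 and 8.73 in control siRNA arrays and 8.42 and 8.58 in PBS arrays, and their summed signal lay between 8998 and 12461, 6585 and 8085, and 6842 and 7583 in the same groups. The array with the lowest mean among the Rab5 siRNA livers was replicate 1, which was also the lowest for both Gyg probe sets but not for Pygb. Replicate 1 was likewise the lowest of its group for Gbe1, Pygl and Ppp1r3g and for the stellate and monocyte marker means. It also stood apart on the first principal component, the axis of largest spread between arrays over the probe sets passing the filter on dim values. There it lay at 23.4, and the other Rab5 siRNA arrays between 39.7 and 49.5. Stellate cell markers had 1 of 10 up and none down, and their mean lay between 7.20 and 7.72 in Rab5 siRNA arrays, against 7.05 and 7.48 in control siRNA arrays and 7.20 and 7.25 in PBS arrays. The part of these cells in the Gyg and Pygb differences was not tested.

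Among the phosphatase subunits Ppp1r3g was called against control siRNA. Ppp1r3g, whose level in mouse liver is known to vary between fasting and feeding, read 2.72, 2.73, 2.78 and 2.87 in Rab5 siRNA livers, against 5.93, 4.16, 5.12 and 3.04 in control siRNA livers and 3.16 and 2.42 in PBS livers. The Rab5 siRNA livers sat together at the dim end within the range of the PBS livers, and 3 of the 4 control siRNA livers stood above both of these groups. The mean was 2.77 ± 0.068 in Rab5 siRNA livers and 4.56 ± 1.25 in control siRNA livers (SD, n = 4 each), a difference of -1.79 (SE 0.420, adjusted p = 0.0113 by limma). With a prior that follows signal level and is robust to outlying spreads this call ended (adjusted p = 0.0985 by limma), and under the filter on dim values the probe set passed only through 2 control siRNA arrays.

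Against PBS, Ppp1r3g in Rab5 siRNA livers differed by less than its error (-0.02, SE 0.515, 95% interval -1.12 to 1.08, adjusted p = 0.993 by limma). For control siRNA against PBS it stood at 1.77 (SE 0.515, adjusted p = 0.914 by limma). Its means in Rab5 siRNA and PBS livers, 2.77 and 2.79, lay under every array's median, so a signal above background was not shown there and the sizes of these differences are not exact. Without control siRNA replicate 4 that difference was 2.28 and was called (adjusted p = 0.0466 by limma).

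Ppp1r3b, the main glycogen-targeting subunit of liver, was called lower against PBS but not against control siRNA. It read 8.86, 8.71, 8.48 and 8.52 in Rab5 siRNA livers, against 8.85, 8.37, 9.02 and 9.35 in control siRNA livers and 9.40 and 9.36 in PBS livers. The PBS livers lay above all others, and the siRNA groups overlapped. The difference from PBS was -0.74 (SE 0.203, adjusted p = 0.0363 by limma), and it was called in 14 of 19 alternatives, though not without PBS replicate 1 or 2 or without Rab5 siRNA replicate 2, 3 or 4. The difference from control siRNA was -0.25 (SE 0.165, 95% interval -0.60 to 0.10, adjusted p = 0.409 by limma), and that of control siRNA from PBS was -0.49 (SE 0.203, adjusted p = 0.999 by limma).

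Ppp1r3c, also known as protein targeting to glycogen, had a similar order of means. Its brighter probe set read 8.04, 8.13, 7.02 and 8.005 in Rab5 siRNA livers, against 7.51, 7.48, 8.13 and 8.42 in control siRNA livers and 8.69 and 8.45 in PBS livers. Both PBS livers lay above all livers given siRNA, and Rab5 siRNA replicate 3 was far below its group. The difference was -0.09 from control siRNA (SE 0.241, 95% interval -0.60 to 0.43, adjusted p = 0.880 by limma) and -0.77 from PBS (SE 0.295, adjusted p = 0.151 by limma). Its sign was not settled, since without Rab5 siRNA replicate 3 the difference from control siRNA was 0.17 and without control siRNA replicate 4 it was 0.09. The other Ppp1r3c probe set was below the filter on dim values, with a mean of 3.47 in Rab5 siRNA livers and 3.77 in control siRNA livers (difference -0.30, adjusted p = 0.171 by limma), and against PBS it stood at 0.05, against the direction of the brighter one.

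**Figure D2:**
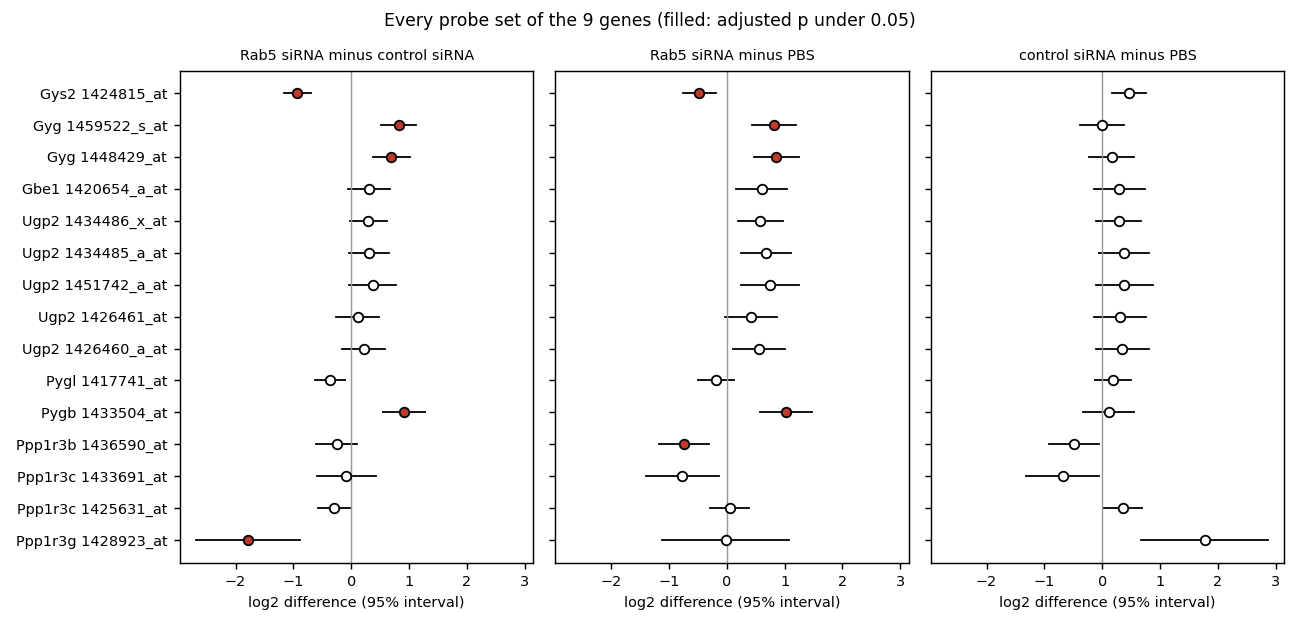
Log2 differences (x axis) with 95% intervals for all 15 probe sets, for Rab5 siRNA minus control siRNA (left), Rab5 siRNA minus PBS (middle) and control siRNA minus PBS (right), on one scale; filled points had an adjusted p under 0.05 by limma. Filled points number 5 on the left and 5 in the middle, with none on the right, and the Ppp1r3g point moves from -1.79 on the left to 1.77 on the right.

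Control siRNA against PBS asks what the nanoparticles with a non-targeting RNA did on their own. Of the 9 genes 0 were called by limma (0% of all genes), and of all 45037 probe sets 2081 had an unadjusted p under 0.05 (4.62%). Among the 9 genes the differences ran from -0.68 for Ppp1r3c to 1.77 for Ppp1r3g, with a median of 0.19, against 0.00 over all genes. Gys2 stood at 0.46 (SE 0.135, adjusted p = 0.924 by limma), with all 4 control siRNA livers above both PBS livers, and the 5 Ugp2 probe sets between 0.28 and 0.38. These differences were not called after adjustment over all probe sets, which does not show that they are absent. A Gys2 difference of similar size and opposite sign (-0.47, SE 0.135) was called for Rab5 siRNA against PBS. In that comparison 10.5% of all genes were called. Only 2 PBS livers were measured.

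Within an array, Gys2 was compared with Pygl and Gyg, and Pygb with Pygl, as log2 differences between probe sets, which show unequal change and not levels. Gys2 minus Pygl was -2.64 ± 0.153 in Rab5 siRNA arrays and -2.08 ± 0.271 in control siRNA arrays (SD, n = 4 each), a difference of -0.56. No test is given for it, since Gys2 alone separated the siRNA groups and the pair was picked knowing it. The Rab5 siRNA arrays lay between -2.76 and -2.43, all below the control siRNA arrays, which lay between -2.38 and -1.73, and the PBS arrays at -2.22 and -2.49 overlapped with both.

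The other pairs are likewise descriptions with no test, since Gys2, Gyg and Pygb each separated the siRNA groups alone and the pairs were picked knowing it. Pygb minus Pygl was -3.39 ± 0.241 in Rab5 siRNA arrays and -4.68 ± 0.157 in control siRNA arrays (SD, n = 4 each), with PBS arrays at -5.04 and -4.17. Gys2 minus Gyg was 0.01 ± 0.394 in Rab5 siRNA arrays and 1.76 ± 0.207 in control siRNA arrays (SD, n = 4 each), with PBS arrays at 1.59 and 1.01.

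**Figure D3:**
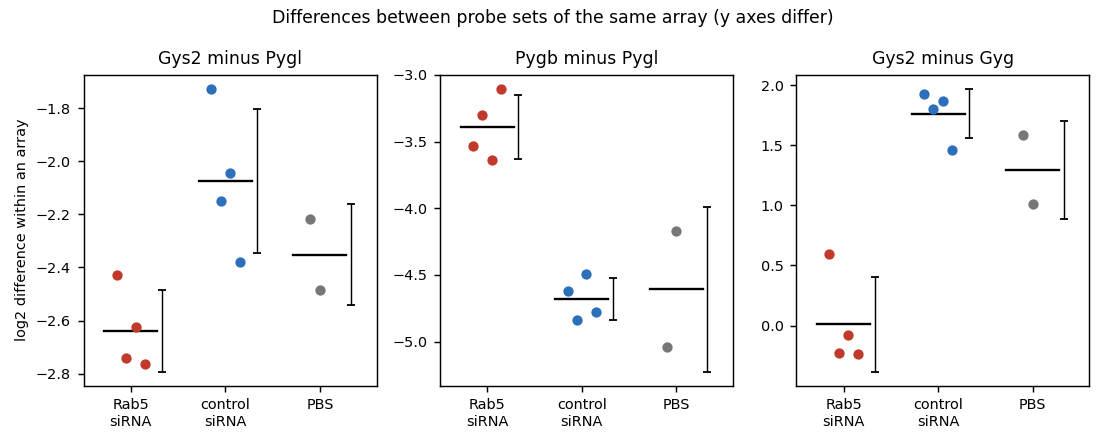
Log2 differences between 2 probe sets of the same array (y axis, a different range in each panel) in Rab5 siRNA (4), control siRNA (4) and PBS (2) arrays; points are arrays, lines means and bars SD. The Rab5 siRNA points lie below all control siRNA points for Gys2 minus Pygl and Gys2 minus Gyg and above them for Pygb minus Pygl.

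For many but not all probe sets the same liver was the highest or lowest of its group. In Rab5 siRNA livers replicate 4 had the highest value for 11 of the 15 probe sets and replicate 3 the lowest for 8. In control siRNA livers replicate 1 had the lowest value for 10 of the 15, among them all Ugp2 probe sets, Gbe1, Pygl and Pygb. Of these 15, 5 are readings of the single gene Ugp2. Other genes ran differently: Gys2 and Ppp1r3b were highest in Rab5 siRNA replicate 1, and in control siRNA livers Ppp1r3g was highest in replicate 1, Gys2 lowest in replicate 4 and Ppp1r3b lowest in replicate 2. The range within a group was narrow for Gys2, at 0.14 in both siRNA groups, and wide for Ppp1r3g in control siRNA livers, at 2.89, against 0.15 in Rab5 siRNA livers.

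**Figure D4:**
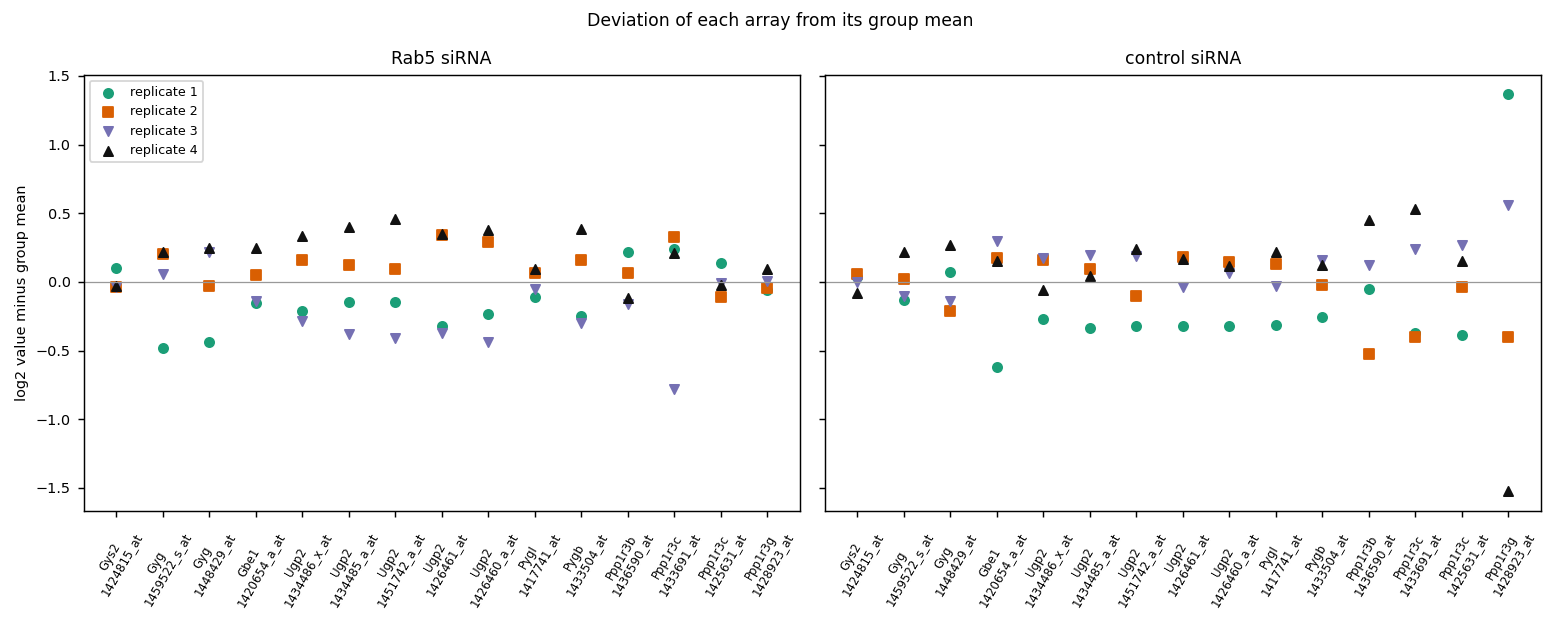
Log2 value of each array minus the mean of its group (y axis) for all 15 probe sets (x axis), in Rab5 siRNA (left) and control siRNA livers (right); colours and shapes mark the replicate numbers, which carry no order. Replicate 4 is the highest of the Rab5 siRNA livers for 11 of the 15 probe sets, and replicate 1 the lowest of the control siRNA livers for 10 of the 15.

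Other genes of the pathway came from lists chosen with earlier results of these data known. They gave 37 measured genes. For Rab5 siRNA against control siRNA 4 fell and 0 rose, with a median of -0.03 over the 37, a smaller share called than the 14.6% of all genes. Of the 4, 3 handle the exit of glucose. G6pc, which frees glucose from glucose 6-phosphate, read 9.20, 8.78, 8.37 and 9.20 in Rab5 siRNA livers, against 11.32, 10.96, 11.77 and 11.49 in control siRNA livers and 10.97 and 10.98 in PBS livers. No Rab5 siRNA liver came near the others (-2.49, SE 0.187, adjusted p = 8.90e-07 by limma). Slc37a4, which carries glucose 6-phosphate into the endoplasmic reticulum, read 8.96, 8.78, 8.79 and 8.49 in Rab5 siRNA livers, against 10.02, 9.59, 9.58 and 9.72 in control siRNA livers and 9.63 and 9.50 in PBS livers (-0.97, SE 0.125, adjusted p = 9.92e-05 by limma).

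The glucose transporter Slc2a2 stood at -0.50 (SE 0.145, adjusted p = 0.0383 by limma) and the phosphoglucomutase Pgm1, which links glucose 1-phosphate to glucose 6-phosphate, at -0.30 (SE 0.089, adjusted p = 0.0421 by limma). Both were close to the threshold. The Pgm1 call ended without any single Rab5 siRNA or control siRNA array, and that of Slc2a2 without Rab5 siRNA replicate 3 or 4 or control siRNA replicate 2, 3 or 4. Against PBS the Slc2a2 difference was -0.09 (SE 0.177, adjusted p = 0.874 by limma) and that of Pgm1 -0.32 (SE 0.109, adjusted p = 0.0969 by limma).

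Of the 26 measured regulators of glycogen enzymes 0 were called against control siRNA by limma, beside 14.6% of all genes, and 3 had an unadjusted p under 0.05. This covers 5 phosphorylase kinase subunits (median -0.04), 7 other phosphatase subunits (median -0.02), 3 genes of laforin, malin and the starch-binding protein Stbd1 (median 0.07), 5 kinases that act on the synthase (median 0.11) and 6 genes of glucagon and adrenergic input (median -0.00). Gcgr, the glucagon receptor, was at -0.34 (SE 0.109, adjusted p = 0.0610 by limma) against control siRNA, where 8 of 19 alternatives called it, among them both filters on dim values. Against PBS it was called (-0.46, SE 0.134, adjusted p = 0.0466 by limma), but in 7 of 19 alternatives only, and not without PBS replicate 1 or 2, Rab5 siRNA replicate 2, 3 or 4 or control siRNA replicate 2, 3 or 4. The muscle isoforms differed from control siRNA by 0.04 for Gys1 (SE 0.101, 95% interval -0.18 to 0.25) and by -0.11 for Pygm (SE 0.133, 95% interval -0.40 to 0.17). Gys1 read 5.81 ± 0.127 in Rab5 siRNA livers and 5.77 ± 0.108 in control siRNA livers (SD, n = 4 each), and the liver synthase Gys2 was the only synthase gene called; whether the changes of Gys1 and Gys2 differ was not tested.

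**Figure D5:**
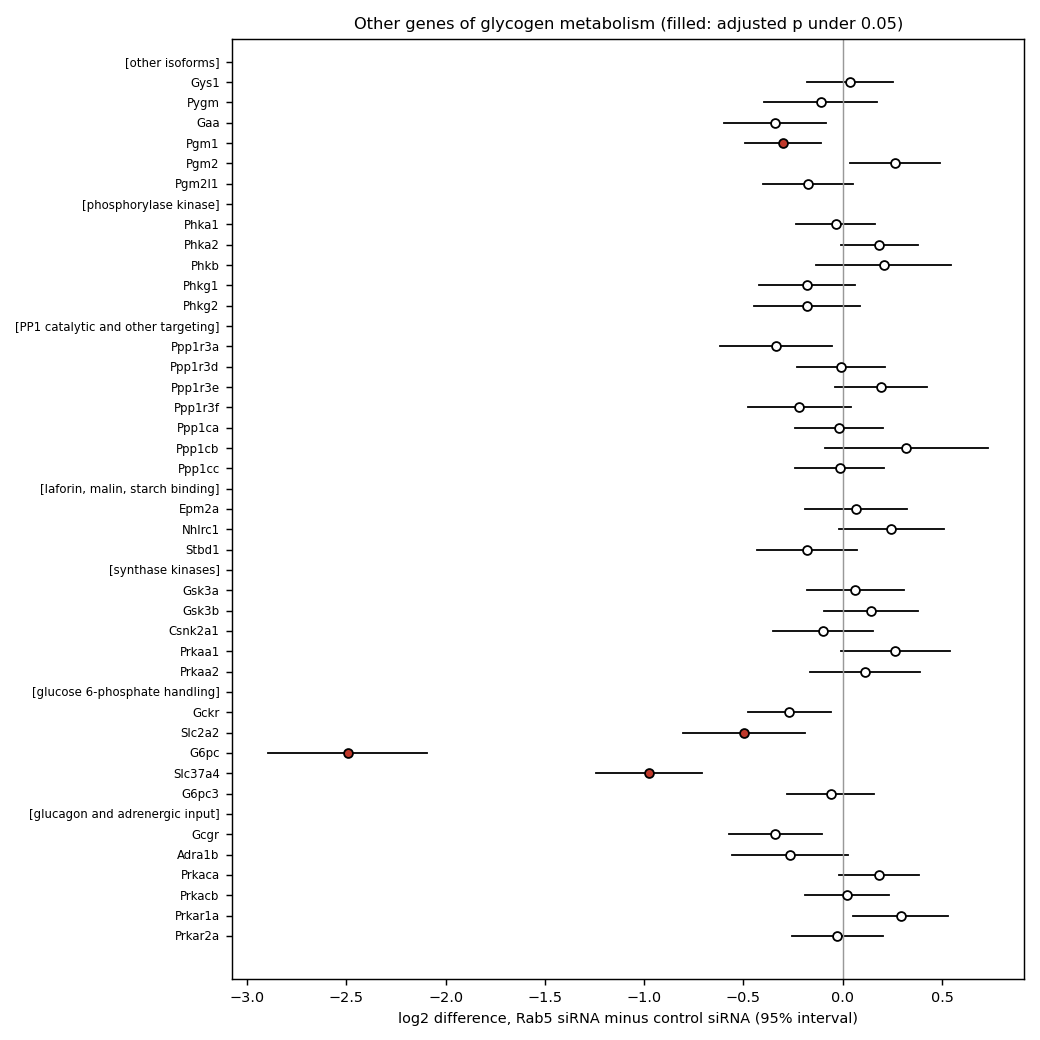
Log2 differences, Rab5 siRNA minus control siRNA (x axis), with 95% intervals for the 37 measured genes of the pathway lists, grouped by role; filled points had an adjusted p under 0.05 by limma. The filled points are Pgm1, Slc2a2, G6pc and Slc37a4, all to the left of 0.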

How the data were processed

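RNA of 10 livers was measured on 3' expression arrays, and the deposited table holds the authors' log2 values for 45101 probe sets. The tools named per the submitters' processing notes, with no order, are Affymetrix Expression Console, RMA and Partek 6.6. As RMA makes the arrays' distributions alike, a general shift of all transcripts would not be seen. No detection calls, genome build or batch are given in the sources used here. The titles number the livers without saying that each is a separate mouse, so the p-values cover only sample-to-sample spread, which may be technical. Array number limits the precision.

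Names came from the platform annotation, with 1 symbol for 34945 probe sets and more than 1 for 932; the remaining 9160 are unnamed here. The 64 control probe sets were left out. Genes were matched by exact symbol. limma 3.58.1 in R 4.3.3 (lmFit, eBayes, a mean per group over 10 arrays) was fitted to all other probe sets with no filter and tested on simulated data. The filter used as an alternative asks for values above 4.33, the median of the table, in at least 2 arrays, which 14 of the 15 member probe sets passed. The text names all members, the Rab5 genes, up to 3 called genes of each pathway list, and Gys1, Pygm and G6pc (other genes of this rule are not reported here), up to 2 genes of each marker list, and, chosen after their values were seen, Gcgr, Stbd1 and Alb. Members, lists and tests were chosen with earlier results of these data known. Lists of hepatocyte, macrophage, stellate, muscle, endothelial, bile duct, lymphocyte, neutrophil and erythroid markers were also counted. The alternatives were 2 filters, 1 probe set per gene, a trended robust prior, array weights, quantile normalization, fits of 2 groups, each replicate left out, and the replicate number as a block.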

Additional observations from a re-analysis of the deposited data

Results flagged for a closer look

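In 4 of 42 groups of 4 livers examined, 1 liver stood apart by Dixon's criterion, and chance alone gives about 5% of groups. Gys2 in Rab5 siRNA replicate 1 was 7.58, against 7.44 in the other 3 Rab5 siRNA livers, a gap that is small beside the distance to the control siRNA livers. The brighter Ppp1r3c probe set in Rab5 siRNA replicate 3 was 7.02, against 8.005 to 8.13 in the others. Gbe1 in control siRNA replicate 1 was 6.79, against 7.56 to 7.71 in the others. The dimmest Ugp2 probe set in the same control siRNA replicate 1 was 7.36, against 7.76 to 7.83 in the others.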

How the results depend on the processing

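Of the 9 genes, Gys2, Gyg and Pygb were called for Rab5 siRNA against control siRNA in all 19 alternatives run, between -1.0 and -0.90, 0.75 and 0.98, and 0.79 and 1.02. For this comparison the fits without PBS replicate 1, without PBS replicate 2 and of only the 2 groups are the same fit. Every count of alternatives against control siRNA therefore holds that fit more than once. Ppp1r3g was called in 17 of 18, between -2.30 and -1.33, but not with the trended robust prior. It passed the filter on dim values only through the control siRNA group, where it is high. For Ppp1r3g the count is therefore no measure of how firm the call is. No called difference changed sign. Leaving out each array gave 4 to 5 genes and 5 to 7 probe sets of the members, 2 to 4 pathway genes and 3645 to 5621 probe sets in all against 4931. Against PBS it gave 0 to 5 genes and 1 to 7 probe sets of the members, 1 to 3 pathway genes and 1686 to 4196 probe sets in all against 3524. The fewest genes came without PBS replicate 1 (0), and 2 each without PBS replicate 2 and without Rab5 siRNA replicates 2 and 4. For control siRNA against PBS it gave 0 to 1 genes and probe sets of the members and 0 to 20 probe sets in all. Without 1 array, Gys2 minus Pygl lay between -0.67 and -0.45, Pygb minus Pygl between 1.19 and 1.37 and Gys2 minus Gyg between -1.95 and -1.67.

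With the filter at the 75th percentile, 7 pathway genes were called against control siRNA and 8 member probe sets against PBS. With 1 probe set per gene 2993 and 2201 were called, since fewer features were tested. Array weights gave 8 member probe sets against PBS, and quantile normalization 4 probe sets in all for control siRNA against PBS. Replicate 2 was also dropped from both siRNA groups, an alternative chosen after seeing the data. There 2934 probe sets, 2 pathway genes and all 4 member genes were called, and the within-array differences were -0.55, 1.21 and -1.66. Where no cause is named, the cause was not tested.

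Same-numbered siRNA arrays deviated from their group means with correlations of 0.293, 0.057, 0.125 and 0.223 for numbers 1 to 4. Rab5 siRNA replicates 1, 3 and 4 each correlated best with the control siRNA array of their own number. Rab5 siRNA replicate 2 did so with control siRNA replicate 4 (0.120). The Gapdh 3' to 5' difference was highest in replicate 2 of each group (2.67 in Rab5 siRNA, 2.86 in control siRNA, 2.58 in PBS). The labels name no pairing or batch, and the main fit used none. Whether same-numbered livers share one was not tested. With the replicate block 6103 probe sets and 4 member genes were called against control siRNA, 3414 and 3 against PBS, and 1 and 0 for control siRNA against PBS.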

Other observations

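Marker lists other than the macrophage and stellate ones were also counted for Rab5 siRNA against control siRNA. Over all genes 8.62% were called up and 6% down. Of 9 hepatocyte markers 1 rose (Ahsg) and 1 fell (Tat). Of 10 sinusoidal endothelial markers 4 fell and 0 rose, of 7 lymphocyte markers 1 fell (Ighm), of 3 erythroid markers 1 fell (Alas2), of 5 cholangiocyte markers 1 rose (Sox9), of 5 monocyte and neutrophil markers 1 rose (Plac8), and of 8 muscle markers none passed.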
